A study of Mus musculus with 6 samples.

Results

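The 10 genes described here detect foreign or misplaced nucleic acid inside cells, pass that signal on or edit double-stranded RNA, and were followed in osteocyte-like MLO-Y4 cells after low-intensity pulsed ultrasound (LIPUS). They are Ddx58, Ifih1, Dhx58, Mavs, Zbp1, Adar, Eif2ak2, Ifi204, Tmem173 and Tlr3, picked by name for these roles with earlier results of these data known, and each matched 1 of the 53797 gene rows of the deposited comparison. MLO-Y4 is an established murine line with features of osteocytes, the cells embedded in bone matrix. The LIPUS group was 3 cultures stimulated for 20 min at 1.5 MHz in pulsed-wave mode at 30 mW/cm2, and the Control group was 3 untreated cultures. Both groups grew in the same serum-containing medium on collagen-coated plates, and the controls were wells of a treated plate whose ultrasound transducers were unplugged. The study states that the experiment was done independently 3 times. LIPUS and Control cultures may thus be paired by repeat, but the labels name no plate. RNA was taken 30 min after the stimulation. The table gives 1 FPKM (fragments per kilobase of exon, scaled to the mapped fragments of the libraries) per gene and group. It is the authors' value for the 3 libraries of a group together, called pooled below. No value of a single culture is in the table, so no difference below could be set against a spread between replicates computed here and no test was run. The authors' own test columns were not used. The table also gives no read count behind a value, and the study states only a round number of reads per library. The study notes that a control culture stood apart from the other controls. It adds that ultrasound may have reached control wells, which shared a plate with treated ones. Every ratio below rests on the pooled Control value that includes this culture, and no value without it could be computed. A status of OK marks the 8145 genes that the authors' program, Cuffdiff, had enough reads to compare, and all 10 genes carried it.

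Cells meet viral RNA mainly through the RIG-I-like receptors of the cytosol, helicases that signal through the mitochondrial adaptor MAVS, and through TLR3 in endosomes. Cytosolic DNA is read by cGAS and by some of the Ifi200 proteins, which act through the adaptor STING. Both routes end in the kinases and IRF transcription factors that switch on type I interferons, and interferon in turn raises the transcription of most of the sensors. The deaminase ADAR converts adenosine to inosine in double-stranded RNA and so keeps the cell's own transcripts from being sensed. Osteocytes, like most cells, express a basal level of this machinery.

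All 10 genes had a lower FPKM with LIPUS than in Control, against 49.2% of the 8145 genes with status OK, a count on genes that were not chosen blind to these values. The ratio was at least 1.5-fold in 5 of them, Zbp1, Dhx58, Ddx58, Adar and Tlr3, a size reached in this direction by 4.71% of the genes with status OK. None was higher with LIPUS, where 4.70% of all such genes passed the same fold. Only Zbp1 differed by at least 2-fold, as did 0.945% of the genes with status OK. The median log2 ratio of LIPUS over Control was -0.67 over the 10 genes and 0.0042 over all genes with status OK. Mavs lay closest to equality. Summed over the 10 genes, the FPKM was 427 in Control and 266 with LIPUS, or 62.2% of the Control sum. In bulk RNA of this kind, fewer cells that express a gene cannot be told apart from less RNA per cell.

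Genes of low level scatter more between the groups, so the ratios were also read against genes of similar FPKM. Between a mean of 10 and 50 FPKM, 4 of 7 of the described genes were at least 1.5-fold lower, where 3.86% of the genes with status OK were. Under 10 FPKM it was 1 of 2 (Tlr3, not Tmem173), where 11.5% of the genes were. At 50 FPKM or more stood only Ifi204, which did not reach the fold, and 1.87% of the genes there did. For Tlr3 the filter itself plays a part. Every gene with status OK reached at least 6.70 FPKM in its higher group, and Tlr3 did so in Control alone. Without Tlr3, 4 of 9 genes passed the fold and their median log2 ratio was -0.57. The lists of related genes named below are given by their medians, since with 4.71% of all genes past the fold a count of 0 in so short a list is no result.

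**Figure D1:**
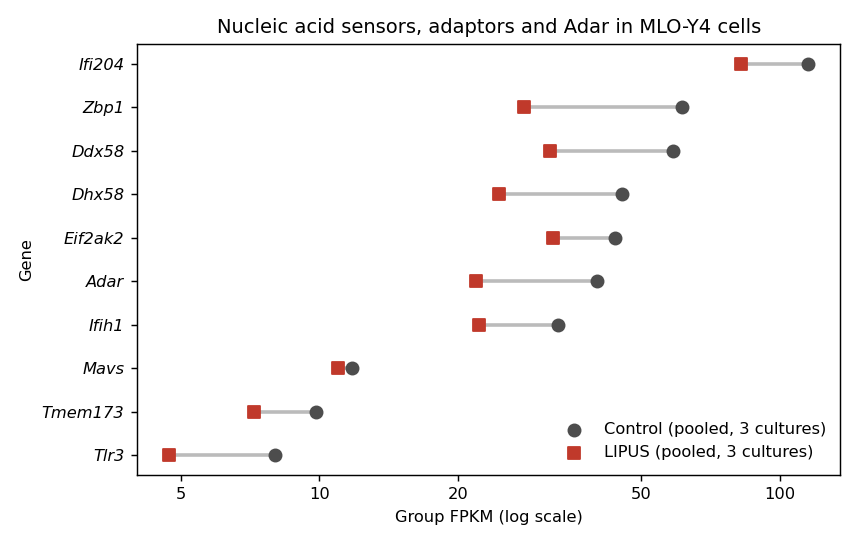
Group FPKM (log axis) of the 10 genes, ordered by their Control level, with grey circles for Control and red squares for LIPUS. Each point is the authors' pooled value for 3 cultures and has no error bar. All squares lie left of the circles, with the widest gap for Zbp1 (61.2 and 27.8 FPKM) and the narrowest for Mavs (11.8 and 11.0 FPKM).

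Among the RIG-I-like receptors, Ddx58 encodes RIG-I, which recognises short RNA with a 5' triphosphate. Its FPKM was 58.6 in Control and 31.7 with LIPUS, a log2 ratio of -0.88. Of the 8145 genes with status OK, 122 had a more negative ratio. Ifih1 encodes MDA5, which binds long double-stranded RNA. It had 33.0 FPKM in Control and 22.2 FPKM with LIPUS (log2 ratio -0.57), just short of the fold at 1.49-fold. Dhx58 encodes LGP2, a relative that lacks the signalling domains of the other two and modulates them. It had 45.3 and 24.6 FPKM (log2 ratio -0.89, with 120 genes more negative). RIG-I and LGP2 transcripts were thus lower by nearly equal factors, 1.846 and 1.847, and MDA5 transcript by a smaller one.

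The sum of the RIG-I-like receptors was 137 FPKM in Control and 78.5 FPKM with LIPUS, a 1.74-fold difference, while their shares of it moved little. Ddx58 made up 42.8% of the sum in Control and 40.4% with LIPUS, Dhx58 33.1% and 31.3%, and Ifih1 24.1% and 28.3%. Mavs, the adaptor on which RIG-I and MDA5 converge, had 11.8 FPKM in Control and 11.0 FPKM with LIPUS (log2 ratio -0.10), and 2857 genes with status OK had a more negative ratio. The receptor sum was therefore 11.6 times the Mavs level in Control and 7.13 times with LIPUS. Dhx58 lies on chromosome 11 (100694884 to 100704271, minus strand), where 2637 bases are shared with the antisense gene Dhx58os, listed at 1.04 and 1.37 FPKM. The start deposited with the Dhx58 value differs from this annotated one. Ddx58 is on chromosome 4 (40203773 to 40239828, minus strand), Ifih1 on chromosome 2 (62595798 to 62646255, minus strand) and Mavs on the same chromosome (131234063 to 131248025, plus strand), all in GRCm38 coordinates of GENCODE M21.

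Zbp1, a sensor of left-handed Z-form RNA and DNA that can start necroptosis through RIPK3, differed most. Its FPKM was 61.2 in Control and 27.8 with LIPUS, 45.4% of the Control level (log2 ratio -1.14). Only 50 genes with status OK, 0.614% of them, had a more negative ratio. In Control it was the second most abundant of the 10 genes, and with LIPUS the fourth. Its downstream partners had ratios nearer to 0. Ripk3, the kinase it recruits, had 46.7 FPKM in Control and 40.6 FPKM with LIPUS, and Mlkl, the membrane-permeabilising effector, 30.7 and 26.4 FPKM. The 5 partners with status OK had a median log2 ratio of -0.17. Zbp1 is on chromosome 2 (173206612 to 173218923, minus strand) and overlaps no other annotated gene.

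Adar, whose long protein form carries a Z-nucleic-acid binding domain like that of ZBP1, had 40.1 FPKM in Control and 21.9 FPKM with LIPUS (log2 ratio -0.88, with 127 genes more negative). The other editing enzyme of double-stranded RNA, Adarb1, was listed at 1.50 and 1.08 FPKM without status OK, so Adar accounted for nearly all of the measured expression of the pair. Genes of proteins that bind the same kind of RNA without editing it differed in both directions. Zfr had 39.6 FPKM in Control and 44.7 FPKM with LIPUS, Ilf2 71.6 and 72.5 FPKM, and Stau1, the lowest in ratio, 46.4 and 34.2 FPKM (log2 ratio -0.44). The 6 genes with status OK in this list had a median log2 ratio of 0.019. Adar spans 89715022 to 89753446 on the plus strand of chromosome 3 and has 9 annotated transcripts in GENCODE M21. On 7252 bases it overlaps Chrnb2 on the other strand (3.58 and 2.81 FPKM). The FPKM is per gene, so the interferon-inducible long form and the constitutive short form of the enzyme were not separated, and the level of editing was not measured.

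Eif2ak2 encodes PKR, the kinase that halts translation by phosphorylating eIF2alpha when it meets double-stranded RNA. Its FPKM was 43.8 in Control and 32.2 with LIPUS, 1.36-fold lower (log2 ratio -0.44), which is under the fold. The remaining eIF2alpha kinases, which answer to other stresses, had log2 ratios nearer to 0. Eif2ak1 was at 13.7 FPKM in both groups, Eif2ak4 at 7.82 and 7.37 FPKM, and Eif2ak3, without status OK, at 3.84 and 4.66 FPKM. The genes that act on or after eIF2alpha were also at nearly equal levels, with 51.6 and 51.1 FPKM for Eif2s1 and 321 and 337 FPKM for Atf4. Within the list of 9 such genes with status OK the median log2 ratio was 0.058. Eif2ak2 is on chromosome 17 (78852564 to 78882573, minus strand) and shares 532 bases with the noncoding gene Gm26637 (0.728 and 0.412 FPKM).

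Interferon acts on many of these genes through a promoter element called the ISRE, so the letters of its core were looked for around their start sites. RefSeq promoter sequence of GRCm38.p6, from 250 bases before to 50 after each start, was at hand for 8 starts of 6 of the genes, Ddx58, Ifih1, Mavs, Adar, Eif2ak2 and Tlr3. The core was taken as GAAA, any 2 bases and GAAA, on either strand. It was present at Ddx58, Ifih1 and Eif2ak2, and in 3.44% of the 32851 promoters of the same length. With 1 base in between (GAAANGAAA), a spacing added after the sequences had been read, it was present at Ddx58 again and at the most downstream of 3 Adar starts, and in 3.17% of all promoters. Either spacing occurred in 6.27% of all promoters. The sequences below are shown because they hold these letters, in capitals, in genes that were lower with LIPUS. They run 5' to 3' along the gene.

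Ddx58 (chr4:40239776-40240075, minus strand): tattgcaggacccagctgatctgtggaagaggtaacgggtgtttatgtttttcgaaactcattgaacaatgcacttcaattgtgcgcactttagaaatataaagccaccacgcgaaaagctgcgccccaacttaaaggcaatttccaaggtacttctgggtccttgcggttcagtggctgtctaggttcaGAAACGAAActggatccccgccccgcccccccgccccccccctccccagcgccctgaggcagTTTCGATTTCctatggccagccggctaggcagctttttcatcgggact
Ifih1 (chr2:62646206-62646505, minus strand): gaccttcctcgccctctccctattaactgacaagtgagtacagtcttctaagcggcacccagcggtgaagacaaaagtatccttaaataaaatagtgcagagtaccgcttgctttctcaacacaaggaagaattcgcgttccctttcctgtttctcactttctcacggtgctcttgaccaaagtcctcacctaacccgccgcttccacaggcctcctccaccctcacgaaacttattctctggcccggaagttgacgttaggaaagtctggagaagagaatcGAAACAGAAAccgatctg
Eif2ak2 (chr17:78882523-78882822, minus strand): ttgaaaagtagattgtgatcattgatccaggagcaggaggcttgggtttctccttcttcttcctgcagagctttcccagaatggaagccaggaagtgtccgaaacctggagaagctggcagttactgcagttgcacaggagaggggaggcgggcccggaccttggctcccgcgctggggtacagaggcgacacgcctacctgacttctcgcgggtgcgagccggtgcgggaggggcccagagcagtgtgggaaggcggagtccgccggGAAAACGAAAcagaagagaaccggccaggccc
Adar, downstream start (chr3:89730468-89730767, plus strand): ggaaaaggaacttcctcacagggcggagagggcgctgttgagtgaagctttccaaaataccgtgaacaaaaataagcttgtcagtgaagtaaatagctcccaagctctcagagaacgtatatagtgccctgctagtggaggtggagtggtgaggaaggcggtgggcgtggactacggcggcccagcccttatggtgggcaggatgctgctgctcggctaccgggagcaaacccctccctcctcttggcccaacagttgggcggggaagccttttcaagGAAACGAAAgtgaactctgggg

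Counted from the first transcribed base as 0, the match of Ddx58 with 2 bases in between covered bases 2 to 11, on the opposite strand, and that with 1 base -60 to -52. The match covered bases 32 to 41 at Ifih1, 18 to 27 at Eif2ak2 and 28 to 36 at Adar, where the bases after the start were not found in a GENCODE M21 transcript. The GAS element, which interferon gamma uses and which was taken as TTCNNNGAA, was present at Eif2ak2 (-178 to -170) and overlapped the Adar match (22 to 30), and 8.30% of all promoters held it. Of the genes with a match, Ddx58 and Adar had log2 ratios of -0.88, Ifih1 -0.57 and Eif2ak2 -0.44, and of those with none, Tlr3 had -0.76 and Mavs -0.10. With 6 genes no relation between letters and ratio was tested. A match of letters is a description of the sequence and does not show binding.

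Of the DNA-sensing genes, Ifi204 was the most abundant of the 10 genes in both groups. It is a nuclear and cytosolic member of the Ifi200 family that binds DNA. Its FPKM was 115 in Control and 82.2 with LIPUS (1.40-fold lower, log2 ratio -0.49), the second largest difference in FPKM (33.2) after Zbp1 (33.4) but under the fold as a ratio. Ifi204 lies on chromosome 1 (173747293 to 173766943, minus strand) beside close relatives, and reads shared among them could be assigned to any, which makes the value of a single member uncertain. Of its relatives with status OK, all but Ifi207 were also lower, by smaller ratios, where 49.2% of all genes with status OK were lower. None of these relatives passed the fold, so their direction is no result about the family. Mnda had 76.4 FPKM in Control and 63.7 FPKM with LIPUS, Mndal 36.6 and 29.6 FPKM, Ifi205 30.6 and 27.0 FPKM and Ifi203 17.8 and 14.2 FPKM, while Ifi207 had 5.53 and 7.86 FPKM and reached 6.70 FPKM with LIPUS alone. The 5 relatives with status OK had a median log2 ratio of -0.26.

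Tmem173 encodes STING, the adaptor of the endoplasmic reticulum that cyclic GMP-AMP activates. It was at 9.84 FPKM in Control and 7.21 FPKM with LIPUS (1.37-fold lower, log2 ratio -0.45), and is a gene of low level here, with 82.8% of the genes with status OK above it in Control. Its ratio was close to that of Eif2ak2. The gene lies on chromosome 18 (35733679 to 35740554, minus strand). The enzyme that makes cyclic GMP-AMP, cGAS, is listed as Mb21d1 and had 11.3 and 7.71 FPKM (log2 ratio -0.55). Of the enzymes that degrade nucleic acid or its precursors, Trex1 had 11.7 and 11.3 FPKM and Samhd1 53.9 and 49.4 FPKM. The subunits of RNase H2 differed in direction, with log2 ratios of -0.44 for Rnaseh2b, 0.17 for Rnaseh2a and 0.15 for Rnaseh2c. Aim2, which forms an inflammasome on DNA, was listed at 0.0984 FPKM in Control and at 0 with LIPUS. Over the 12 DNA-sensing and nuclease genes with status OK, the median log2 ratio was 0.034.

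Tlr3, the endosomal receptor of double-stranded RNA, was the least abundant of the 10 genes, with 8.0 FPKM in Control and 4.72 FPKM with LIPUS (1.69-fold lower, log2 ratio -0.76). It is on chromosome 8 (45395665 to 45411080, minus strand), where 698 bases overlap the antisense gene Gm45542 (0.877 and 0 FPKM). The other endosomal receptors of nucleic acid were hardly detected. Tlr7, Tlr8 and Tlr9 were listed at 0 in both groups, and Tlr13 at 0 in Control and 0.0547 FPKM with LIPUS. Ticam1, the adaptor TRIF that TLR3 uses, was higher with LIPUS, at 6.79 and 9.81 FPKM in Control and LIPUS (log2 ratio 0.53), under the fold. Tirap, an adaptor of the surface receptors TLR2 and TLR4, had 9.98 FPKM in Control and 5.53 FPKM with LIPUS (log2 ratio -0.85), past the fold, but like Tlr3 it reached 6.70 FPKM in Control alone. TLR4 transcript itself was at 3.13 and 4.73 FPKM without status OK. The 7 genes with status OK in the endosomal list had a median log2 ratio of 0.10, and the 3 in the surface list one of -0.060.

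**Figure D2:**
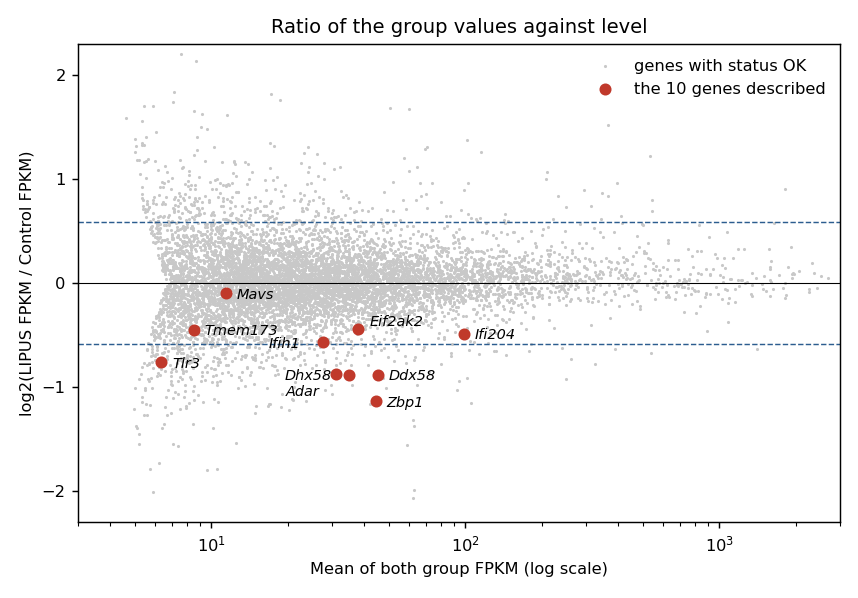
log2 ratio of LIPUS over Control FPKM against the mean of both FPKM (log axis) for genes with status OK (grey) and the 10 genes (red), with dashed lines at 1.5-fold in either direction. 23 grey genes lie outside the axes. The 10 genes are all under 0, between -0.10 (Mavs) and -1.14 (Zbp1), and the grey points widen towards low FPKM.

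The signalling chain between the adaptors and the interferon genes was examined next. Of its 14 genes with status OK, Irf5 alone passed the fold, at 29.5 FPKM in Control and 17.2 FPKM with LIPUS (log2 ratio -0.78), and with 4.71% of all genes with status OK past it this count is no result about the chain. Irf7 and Irf3 differed in direction, both under the fold. Irf7, itself an interferon-induced gene, had 124 and 84.0 FPKM (log2 ratio -0.56), whereas Irf3, the constitutive factor, had 19.8 and 28.5 FPKM (log2 ratio 0.53). The kinase gene Tbk1 was at 24.0 and 25.7 FPKM. The median log2 ratio of the chain was -0.076. The 14 cofactors of the RIG-I-like receptors with status OK had a median of -0.038. Trim25, which activates RIG-I by ubiquitination, had 25.6 FPKM in Control and 21.7 FPKM with LIPUS, and Zc3hav1, a zinc finger antiviral protein, 38.6 and 32 FPKM. Genes of the double-stranded RNA-binding cofactors Tarbp2 (25.6 and 32.3 FPKM, log2 ratio 0.34) and Prkra (log2 ratio 0.30) were higher with LIPUS, also under the fold. The cofactors just named lay farthest from equal levels among the 14. Ywhae, the most abundant, had 439 FPKM in Control and 404 FPKM with LIPUS (log2 ratio -0.12). Among 10 inhibitors of sensing with status OK, only Usp18 passed, an interferon-induced protease that removes ISG15 and blocks the interferon receptor, with 85.9 and 43.5 FPKM (log2 ratio -0.98). That count too is to be read beside the 4.71% of all genes with status OK. The median log2 ratio of the 10 inhibitors was 0.046.

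Interferon genes themselves were at the floor of the table. Ifnb1 was listed at 0.646 FPKM in Control and 0.367 FPKM with LIPUS, Ifna4 at 0.607 and 0, and the remaining 7 of 9 interferon genes at 0 in both groups. Stat2, which carries the interferon signal to the nucleus, had 23.2 FPKM in Control and 12.6 FPKM with LIPUS, a log2 ratio of -0.88, the size seen for Ddx58, Dhx58 and Adar. The receptor genes Ifnar1 (16.4 and 15.7 FPKM) and Ifnar2 (58.2 and 69.7 FPKM) and the kinase gene Jak1 (60.4 and 74.1 FPKM) did not pass the fold, nor did Irf9 (24.7 and 23.1 FPKM). The 6 genes with status OK between the receptor and its transcription factor complex had a median log2 ratio of -0.077. The oligoadenylate synthetases, which sense double-stranded RNA, had 5 of 7 genes of their list with status OK past the fold, beside 4.71% of all genes with status OK, and a median log2 ratio of -0.88. Oasl2 was the most abundant of them (124 and 64.8 FPKM). The Ifit genes, which bind RNA lacking host cap marks, had a median log2 ratio of -1.56 over the 3 with status OK. Ifit1 had 90.5 FPKM in Control and 34.9 FPKM with LIPUS, and Ifit3 87.8 and 29.8 FPKM. The other, Ifit3b (16.4 and 4.72 FPKM), reached 6.70 FPKM in Control alone. The 10 genes thus lay between these families and the signalling chain in median ratio, an order for which no test was possible.

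Over all 14 pathway lists, 13 of 99 genes with status OK were at least 1.5-fold lower, 0 were higher, beside 4.71% and 4.70% of all genes with status OK, and the median log2 ratio was -0.060. Of those lower, 5 were in the oligoadenylate synthetase list and 3 in the Ifit family, so these lists hold most of them. The others were Irf5, Usp18, Tirap and 2 of the 6 genes with status OK between the interferon receptor and its transcription factor complex, and no gene of the remaining lists passed in either direction. Of the 30 list genes without status OK that reached 1 FPKM in a group, 5 were lower past the fold (Adat3, Ddx60, Ifi206, Rnf135 and Traf5) and 5 higher (Rnf125, Stau2, Tlr4, Tnfaip3 and Tyk2). That is close to the background of such genes, 19.9% lower and 18.9% higher, so nothing can be read from them. Rnf135, the ubiquitin ligase Riplet of RIG-I, was listed at 3.65 and 1.54 FPKM, and Ddx60, a helicase cofactor, at 5.76 and 3.09 FPKM. Among the 5 higher ones, Stau2 was listed at 0.765 FPKM in Control and 4.21 FPKM with LIPUS, and Tnfaip3 at 1.99 and 3.25 FPKM.

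**Figure D3:**
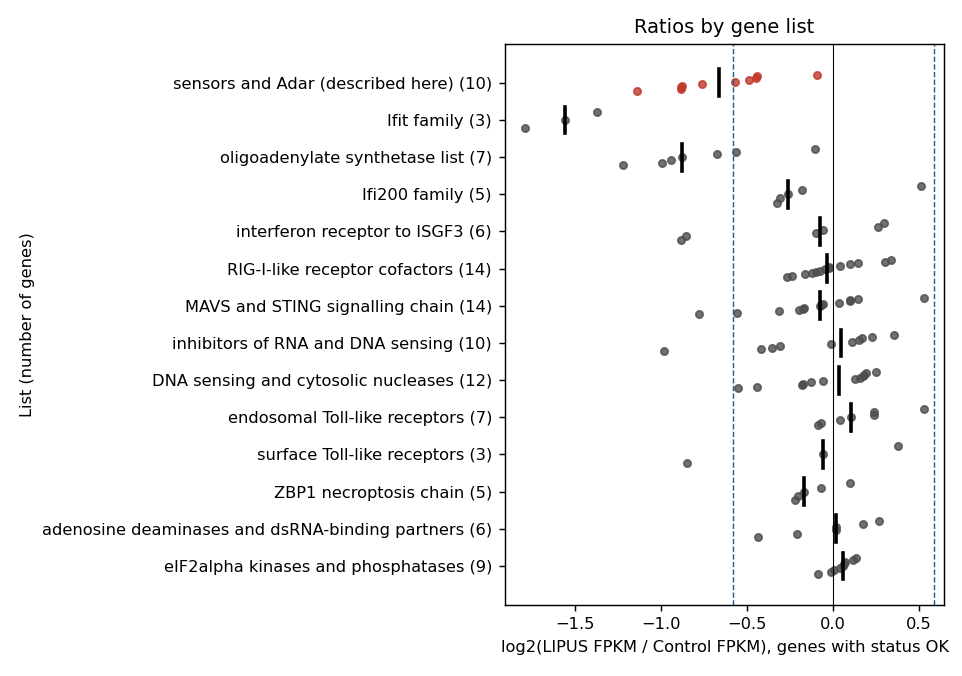
log2 ratio of LIPUS over Control FPKM for the 10 genes (red) and for the genes with status OK of 13 pathway lists (grey), 1 row per list, with black bars at the medians and dashed lines at 1.5-fold. The 10 genes, the Ifit family and the oligoadenylate synthetase list have medians left of the 1.5-fold line (-0.67, -1.56 and -0.88), and the medians of the other lists lie between -0.26 and 0.10. Genes in several lists appear in each, and the interferon list has no gene with status OK.

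The cell label and other cell types were checked with marker lists. Of 9 osteocyte markers, Pdpn (295 and 402 FPKM in Control and LIPUS), Gja1 (176 and 170 FPKM) and Cd44 (200.2 and 211.9 FPKM) were abundant. Dmp1 was low and 2.52-fold higher with LIPUS (3.04 and 7.65 FPKM), past the fold like 4.70% of all genes with status OK, and reached 6.70 FPKM with LIPUS alone. The late markers Sost, Mepe and Fgf23 were listed at 0 in both groups, and Phex and Bglap at 0 in Control and at 0.190 and 1.58 FPKM with LIPUS. The part of these marker differences in the result was not tested. Ifi204, Zbp1 and Tlr3 are also genes of macrophages. Of 10 leukocyte markers, 7 were listed at 0 in both groups, among them the defining Ptprc, Adgre1, Itgam and Cd3e. Those above 0 had no status OK and were Cd68 (5.32 and 1.72 FPKM), Lyz2 (2.01 and 0.189 FPKM) and Csf1r (0.236 and 0.233 FPKM). Their summed FPKM was 7.56 in Control and 2.14 with LIPUS, lower in the same direction as the 10 genes described, and its part in the result was not tested.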

How the data were processed

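RNA was measured in 3 LIPUS and 3 Control cultures, and a single table of the comparison was used. Read trimming by the authors used Trimmomatic 0.36. Alignment to GRCm38 used TopHat2 2.1.0 with Bowtie2 2.2.6.0, and FPKM were computed on Ensembl mouse transcripts from stranded libraries, with the use of strand not given in the sources used here. The labels name Cufflinks 2.1.1 for this step, and the methods a later release. The deposited FPKM is 1 value per gene and group over the replicates of the group, so no read count, SD or leave-one-out value can be had from it. The table also holds the authors' own fold changes, test statistics, p-values and q-values, which were not used here. Of columns with values of other single samples there were 0.

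The log2 ratio of LIPUS over Control FPKM was computed without a pseudocount, and a gene was counted as lower or higher at 1.5-fold or more among genes with status OK. Shares over all such genes are printed as background. The members and the lists were chosen with earlier results of these data known. Genes named are the 10 members, the genes of the 16 lists with status OK past the fold, up to 4 of the highest mean FPKM per list, and the markers, apart from some genes not reported here. Ifnar1, Ifi207, Mb21d1, Ticam1, Trex1, the RNase H2 subunits, Tarbp2, Prkra, Trim25, Zc3hav1, the other eIF2alpha kinases and most list genes without status OK fall outside this rule and were named for their role after their values were seen. Positions came from GENCODE M21. For Dhx58 and Tmem173 the gene start deposited with the values differed from it, and for the other members it matched. Promoters came from RefSeq, which matched 6 of the 10 genes. A protein comparison was not run. Python 3.11.15, numpy 2.4.6, pandas 2.3.3 and matplotlib 3.10.9 were used, and the counting step was tested on simulated data. Alternatives were a looser and a stricter fold, pseudocounts of 0.1 and 1, other minimum FPKM values, and centring on the median or scaling by the upper quartile.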

Additional observations from a re-analysis of the deposited data

How the results depend on the processing

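All 40 alternative log2 ratios of the 10 genes (pseudocounts of 0.1 and 1 FPKM, median centring and upper quartile scaling) stayed negative, and none moved by more than 0.11. The count of genes at least 1.5-fold lower was 5 under both pseudocounts, median centring, upper quartile scaling and a filter of 1 FPKM in place of status OK, and 4 with a minimum of 10 FPKM, which leaves out Tlr3 and Tmem173. It was 1 at 2-fold and 9 at a looser limit of 0.32 on the log2 scale, which Mavs alone missed, as a stricter or looser limit has to change it. No gene was higher under any of these settings. The median log2 ratio of the 10 genes was -0.60 with a pseudocount of 1, -0.66 with a pseudocount of 0.1, -0.66 with upper quartile scaling and -0.72 with a minimum of 10 FPKM. The background share of lower genes ranged from 0.945% (2-fold) to 13.4% (the looser fold), and was 9.59% among all genes of at least 1 FPKM. Of 224 alternative counts over the lists, 196 kept within 1.5 times, 21 were larger and 7 smaller. Most of the list counts were 0 in the main setting and could not fall, so this share says little about stability. No paired analysis was possible because the table holds no value of a single library, and for the same reason no replicate could be left out. Values without the control culture that stood apart could therefore not be given. How much of a difference is counting error cannot be read from the FPKM values, and the authors' own test columns were not used.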
